A study of Mus musculus with 9 samples.

Results

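The genes described here encode the enzymes that make and break down coenzyme A in the mouse: the pantothenate kinase family Pank1, Pank2, Pank3 and Pank4, the synthesis enzymes Ppcs, Ppcdc and Coasy, the coenzyme A hydrolases Nudt7 and Nudt19, and the pantetheinase Vnn1. They are 10 of the 52636 genes in the count table, found by symbol, and all 10 were among the 17114 genes that passed the filter on low counts. The pathway was picked because the Pank1 level in C59A kidneys stands apart from that of the other genotypes, so the Pank1 values are given as a description, with no test. The other enzymes were added by function, with results of these libraries in view, and their counts below are no independent evidence of a direction.

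RNA was sequenced from mouse kidney in 9 libraries, 3 of wild-type (WT) mice and 3 each of the Nfkb1 knock-in genotypes C59A and C59S. Both knock-in alleles change the codon of cysteine 59 in exon 6 of Nfkb1, which encodes the NF-kB subunit p50, to alanine in C59A and, by its name, to serine in C59S. Both alleles also carry a PGK-neo selection cassette in an intron and were made in C57BL/6NTac-derived embryonic stem cells. The series text lists C59A as activated and C59S as inactivated, yet it names reduced binding to DNA before increased binding for the same pair, and neither allele is treated here as the more active one. Sex, age, litter, zygosity and the substrain of the WT mice are not given in the sources used here, and counts per gene cannot show a codon change. No label states that replicates come from separate animals, and p-values then reflect just the spread among these libraries, possibly a technical one.

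Coenzyme A carries acyl groups in the citric acid cycle, in fatty acid synthesis and oxidation, and in amino acid breakdown. Cells build it from pantothenate, which is vitamin B5. The pantothenate kinases perform the first, rate-setting step and are inhibited by acetyl-CoA. PPCS then joins cysteine, PPCDC removes a carboxyl group, and the bifunctional COASY adds the nucleotide and a final phosphate. NUDT7 and NUDT19 are peroxisomal hydrolases that cleave coenzyme A and its esters, and NUDT19 is known as the main such enzyme of mouse kidney. VNN1, anchored on the outer cell surface, frees pantothenate from pantetheine. Reabsorbing kidney epithelium lives mainly on fatty acid oxidation, which consumes free coenzyme A.

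Total counts per library lay between 16367403 (C59A replicate 1) and 25787659 (C59S replicate 1). The smallest count of any of the 10 genes was 196 reads, for Nudt7 in C59S replicate 3, against a detection floor of 3 reads, which equals 0.112 to 0.202 CPM. CPM are counts relative to the library total times its TMM scaling factor, and they compare 1 gene across libraries. The 11 markers of early proximal tubule, the most abundant kidney epithelium, were detected in every library with a summed level of 6280 to 12200 CPM. The share of counts on mitochondrial genes was 16.4% to 19.6% in WT, 20.8% to 28.8% in C59A and 20.5% to 40.6% in C59S. Every WT library thus lay below every knock-in library. A fit with this share as covariate, given below, cannot fully part it from genotype. C59S replicate 3 stood apart with the 40.6%, against 16.4% to 28.8% in the other libraries. It also had the highest sum of the 6 adipocyte markers, 1250 CPM. Adipocyte markers summed to 27.4 to 63.4 CPM in WT, 162 to 268 in C59A and 152 to 1250 in C59S. Nearly all of the sum was Fabp4 in the WT libraries, in C59A replicate 2 (160 of 162 CPM) and in C59S replicate 1 (149 of 152 CPM). Adipoq, another of these markers, was at 0 to 0.0503 CPM in WT. It was at 4.05, 0.17 and 15.8 in the C59A libraries and 0.224, 42.3 and 39.8 in those of C59S. The C59A libraries also differed in sex-linked RNA. Xist, which coats the inactive X chromosome, was at 0.191 to 0.725 CPM in C59A, 816 to 1280 in WT and 885 to 895 in C59S, and the 4 Y-linked genes examined were higher in C59A in both comparisons. The C59A genotype and sex-linked differences therefore cannot be told apart in any C59A comparison below.

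The kinase genes host microRNAs, so that their sequences are part of what each kinase locus can produce. Mir107 lies on chromosome 19 within an intron of Pank1, on the same strand, with its 3p arm at chr19:34820700-34820722. Mir103-2 lies within an intron of Pank2 (3p arm at chr2:131288103-131288125) and Mir103-1 within an intron of Pank3 (3p arm at chr11:35782447-35782469). The mature 3p sequences from RefSeq (GRCm38.p6) are shown because the 3 kinase loci share 1 seed, bases 2 to 8, in capitals.
mmu-miR-107-3p: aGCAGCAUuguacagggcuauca
mmu-miR-103-3p: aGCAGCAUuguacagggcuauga
Both carry the seed GCAGCAU, and miR-103-3p differs from miR-107-3p by C22G, counted from the 5′ end with the base of miR-107-3p first. These long-RNA libraries hardly sample microRNAs: Mir107 had 2 reads over all 9 libraries, Mir103-1 had 0 and Mir103-2 had 8. No statement on the microRNAs in the 3 genotypes can be made from these counts.

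Start regions of the genes were taken from RefSeq for GRCm38.p6, which matched 8 of the 10 symbols with 12 windows of 250 bases upstream of an annotated start. Coasy and Vnn1 were without an entry. Printed are both windows of Pank1, the gene that sets C59A apart, and the window of Ppcs, chosen after the search because it held both half-sites. Capitals mark matches to a half-site of the androgen and glucocorticoid receptors, AGAACA, or of other nuclear receptors, AGGTCA, searched on both strands.
Pank1, upstream start, chr19:34879456-34879705, minus strand: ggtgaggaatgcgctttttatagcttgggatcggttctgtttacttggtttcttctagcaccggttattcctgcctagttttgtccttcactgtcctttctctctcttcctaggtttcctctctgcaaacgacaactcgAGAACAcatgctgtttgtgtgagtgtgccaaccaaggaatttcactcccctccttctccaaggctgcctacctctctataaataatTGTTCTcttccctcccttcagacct
Pank1, downstream start, chr19:34877918-34878167, minus strand: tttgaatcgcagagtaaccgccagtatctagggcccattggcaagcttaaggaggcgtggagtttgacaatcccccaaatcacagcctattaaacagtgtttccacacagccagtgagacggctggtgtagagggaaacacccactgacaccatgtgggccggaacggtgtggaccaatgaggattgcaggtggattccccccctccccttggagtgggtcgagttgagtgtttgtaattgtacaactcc
Ppcs, chr4:119422421-119422670, minus strand: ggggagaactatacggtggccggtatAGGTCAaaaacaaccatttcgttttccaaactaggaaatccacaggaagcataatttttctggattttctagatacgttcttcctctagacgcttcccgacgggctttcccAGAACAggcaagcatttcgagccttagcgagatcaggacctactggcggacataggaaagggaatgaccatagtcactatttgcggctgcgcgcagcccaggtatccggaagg
The upstream Pank1 window held AGAACA in both orientations, at 111 and 25 bases before the start (printed as TGTTCT for the match on the other strand), and the Ppcs window held 1 AGAACA and 1 AGGTCA. The Pank4 window also held 1 AGAACA, while the windows of Pank2, Pank3, Ppcdc, Nudt7 and Nudt19 held neither half-site. The Nudt19 window lies within the gene and overlaps an exon, since its RefSeq start is 376 bases from the nearest GENCODE start. The Ppcdc window also lies within its gene, with its RefSeq start 355 bases from the nearest GENCODE start. Neither window describes the region upstream of its gene. Of all 32851 windows of this length, 16.1% held at least 1 AGAACA, 1.81% held at least 2, and 14% held AGGTCA. The element of PPAR and RXR, 2 copies of AGGTCA with 1 base between them, and the kappa B consensus, present in 0.0335% and 5% of all windows, had no match in the 12 windows. TATAAA, present in 12.4% of all windows, was matched in the upstream Pank1 window alone, 35 bases before the start and, on the other strand, 234 bases before it. A match describes letters and not binding, and its absence says only that these letters are not in the window. The upstream Pank1 window had 46.4% G and C with 5 CpG dinucleotides, the downstream one 52.8% with 7 and the Ppcs window 49.6% with 14, against medians of 52.4% and 6 over all windows. The gene counts pool transcripts from all starts, so they do not show which Pank1 start was in use.

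Per gene length, the coenzyme A genes of WT kidney spanned from Nudt19 at 101 FPKM ± 22 to Nudt7 at 2.54 FPKM ± 0.0413 (SD, n = 3). FPKM are the deposited values scaled by gene length and a constant per library, which put different genes on 1 scale. The length is 1 value per gene (5618 bases for Nudt7, 2680 for Nudt19), whichever transcripts are made. Order and ratios between genes therefore depend on the annotation. Vnn1 (28.8 FPKM ± 3.49) and Coasy (26.2 ± 6.16) followed Nudt19 and overlapped each other. Next came Ppcs (14.3 ± 1.55), Pank1 (12.8 ± 0.575) and Pank4 (11.6 ± 1.25), each overlapping its neighbour. Ppcdc stood at 7.37 FPKM ± 0.932, apart from the genes on either side. Pank3 (4.59 ± 0.55) and Pank2 (3.95 ± 0.181) overlapped. The last of the synthesis steps thus had a higher level per length than each kinase, and 1 hydrolase had by far the most RNA of the pathway.

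In C59A the order differed by 1 main step. Pank1 stood at 60.5 FPKM ± 2.55 (SD, n = 3), at rank 3, where its libraries overlapped those of Vnn1 (78.5 ± 18.1) and lay above those of Coasy (39.6 ± 6.65). Nudt19 led again with 350 FPKM ± 37, and Nudt7 was again last with 3.08 ± 0.577. Pank3 and Ppcdc traded places but overlapped. In C59S the order was that of WT, with Nudt19 at 118 FPKM ± 43.5, Pank1 at 13.9 ± 1.1 and Nudt7 at 2.55 ± 0.319.

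**Figure D1:**
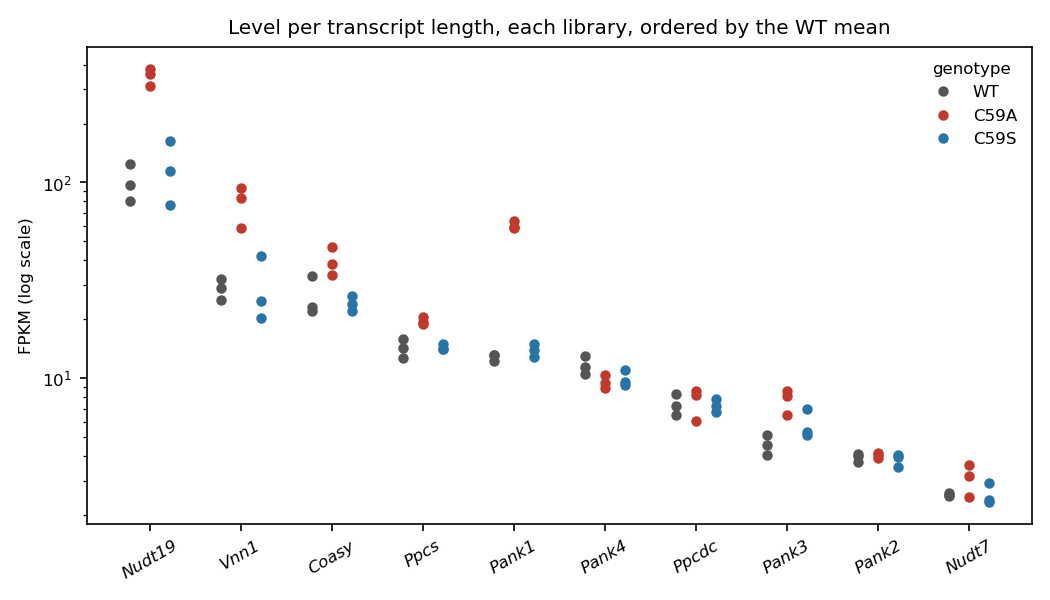
Deposited FPKM (log scale) of each coenzyme A gene, 1 point a library, ordered from left to right by the WT mean, with WT in grey, C59A in red and C59S in blue. Nudt19 is highest in all 3 genotypes, and the Pank1 points of C59A lie at 58.7 to 63.4 FPKM against 12.2 to 15 in the other genotypes.

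The pantothenate kinases were unlike each other across the genotypes. Pank1 (ENSMUSG00000033610, chromosome 19: 34810894 to 34879455, minus strand) encodes the kinase known for its high level in liver and kidney. Its level was 50, 49.2 and 45.7 CPM in the WT libraries, 222, 221 and 233 in those of C59A and 56.7, 51.7 and 47.7 in those of C59S. Every C59A library was far above every other library, and WT and C59S overlapped. The difference C59A minus WT was 2.22 on the log2 scale, a 4.67-fold higher level, and C59A minus C59S was 2.12, or 4.33-fold. These are the values that led to the choice of the pathway. Leaving out any 1 library gave 2.19 to 2.25 against WT and 2.06 to 2.18 against C59S. The difference C59S minus WT was 0.11 and 0.04 to 0.17 with 1 library left out.

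Pank2 (ENSMUSG00000037514, chromosome 2: 131262495 to 131299188, plus strand), whose human counterpart is the gene of a neurodegenerative disease with brain iron, stayed within a narrow band. It was at 18.8, 20.5 and 20 CPM in the WT libraries, 20.6, 19.7 and 19.9 in those of C59A and 17.8, 19.5 and 20 in those of C59S. The libraries of all 3 genotypes overlapped. The log2 difference of C59A from WT was 0.02 ± 0.11 (SE), with a 95% interval of −0.22 to 0.27 and an adjusted p of 0.936 in the quasi-likelihood test of edgeR, adjusted by Benjamini-Hochberg over all genes as throughout, and that of C59A from C59S was 0.07 ± 0.11 (interval −0.17 to 0.32, adjusted p 0.757). Rnf24, on the opposite strand, overlaps Pank2 by 1125 bases and had 11905 reads over the 9 libraries against 3586 for Pank2, from 129 to 4257 per library. The kit does not mark strand, so reads of the overlap cannot be assigned to either gene, and its part in the Pank2 values was not tested.

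Pank3 (ENSMUSG00000018846, chromosome 11: 35769484 to 35791285, plus strand) encodes a kinase made in many tissues. It was at 34.4, 38.8 and 30.4 CPM in the WT libraries, 48.7, 61 and 63.5 in those of C59A and 38.9, 39.7 and 51.6 in those of C59S. Every C59A library lay above every WT library, the C59S libraries lay just above the WT libraries, and C59S replicate 3 reached into the C59A range. Pank3 rose in C59A against WT by 0.74 ± 0.15 on the log2 scale (1.67-fold, adjusted p 0.0163). The call was lost without WT replicate 1 (adjusted p 0.0576) or C59A replicate 3 (0.0635). Against C59S the difference was 0.42 ± 0.15 (adjusted p 0.132), and between C59S and WT it was 0.33 ± 0.15 (adjusted p 0.287), so neither passed.

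Pank4 (ENSMUSG00000029056, chromosome 4: 154964123 to 154980938, plus strand) encodes a family member with a phosphatase domain that lacks kinase activity. It was at 46.2, 37.3 and 40.7 CPM in the WT libraries, 33.7, 36.9 and 31 in those of C59A and 39.3, 33.6 and 32.5 in those of C59S. The C59A libraries lay below the WT libraries with a gap of under 1 CPM, and those of C59S overlapped both. The log2 difference of C59A from WT was −0.29 ± 0.13 (95% interval −0.57 to −0.01) with an adjusted p of 0.218, which did not pass.

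Within the active kinases, the balance of RNA therefore lay with Pank1 more in C59A than elsewhere. Pank1 made up 60% ± 1.46 of the summed FPKM of Pank1, Pank2 and Pank3 in WT kidneys, 83.7% ± 0.964 in C59A and 59.1% ± 4.77 in C59S (SD of 3 libraries). The summed kinase level was 21.4 FPKM ± 1.07 in WT, 72.3 ± 3.32 in C59A and 23.6 ± 0.346 in C59S. Both quantities hold the Pank1 level that chose the pathway and are given without a test.

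**Figure D2:**
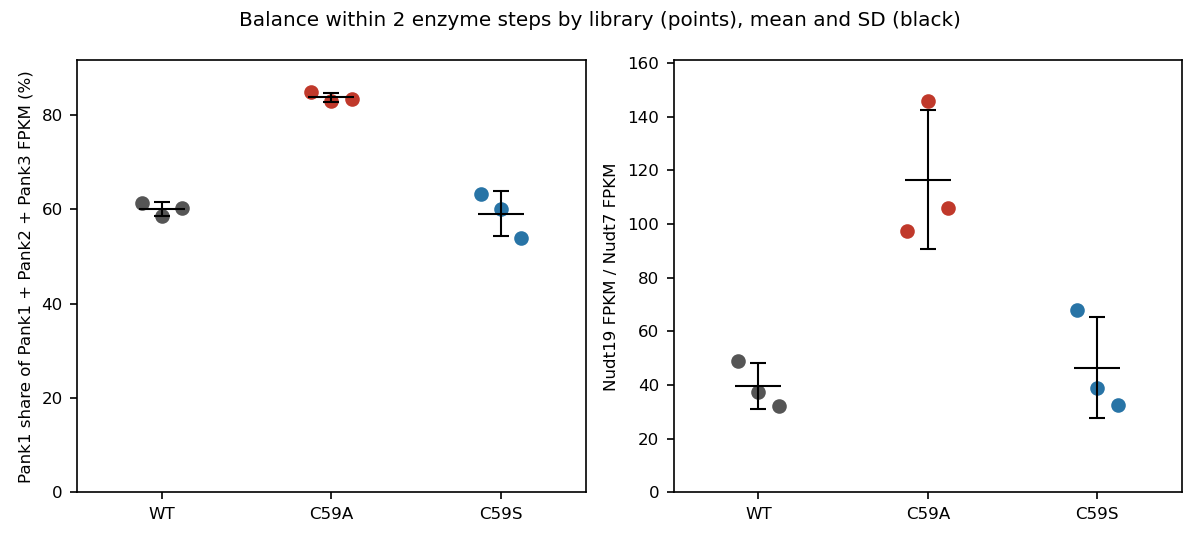
Left, the percent of the summed FPKM of Pank1, Pank2 and Pank3 that is Pank1. Right, the FPKM of Nudt19 divided by that of Nudt7. Points are libraries and black marks the mean and SD of 3. The Pank1 share is 83% to 84.8% in C59A and at most 63.3% elsewhere, and the hydrolase ratio is 97.6 to 146 in C59A and at most 67.9 elsewhere.

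The enzymes after the kinase step showed smaller differences. Ppcs (ENSMUSG00000028636, chromosome 4: 119418530 to 119422420, minus strand), the ligase that joins cysteine, was at 20.9, 25.9 and 23.3 CPM in the WT libraries, 30.8, 31.6 and 33 in those of C59A and 23.1, 24 and 23 in those of C59S. The C59A libraries lay above all others, which overlapped. Ppcs rose in C59A, by 0.45 ± 0.11 on the log2 scale relative to WT (1.36-fold, adjusted p 0.0416) and relative to C59S by 0.44 ± 0.11 (1.36-fold, adjusted p 0.0439). Both calls were near the threshold. Against WT Ppcs no longer passed without WT replicate 1 (adjusted p 0.148), WT replicate 3 (0.0806), C59A replicate 1 (0.0874), C59A replicate 2 (0.0823) or C59A replicate 3 (0.134). Against C59S it was lost without any 1 of the 6 libraries: C59A replicates 1, 2 and 3 gave 0.0977, 0.0723 and 0.141, and C59S replicates 1, 2 and 3 gave 0.101, 0.105 and 0.15.

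Ppcdc (ENSMUSG00000063849, chromosome 9: 57385095 to 57440124, minus strand), the decarboxylase of the pathway, was at 49.6, 38.6 and 42.7 CPM in the WT libraries, 35.9, 50.8 and 47.3 in those of C59A and 46.4, 39.3 and 42 in those of C59S. The libraries of the genotypes overlapped throughout. The log2 difference of C59A from WT was 0.03 ± 0.15 with a 95% interval of −0.29 to 0.36 (adjusted p 0.928), and that of C59A from C59S was 0.07 ± 0.15 with an interval of −0.26 to 0.39 (adjusted p 0.831).

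Coasy (ENSMUSG00000001755, chromosome 11: 101082565 to 101086619, plus strand), the final synthesis enzyme, was at 68, 97.4 and 64.5 CPM in the WT libraries, 112, 98.3 and 134 in those of C59A and 69.9, 76.1 and 63.9 in those of C59S. C59A lay above all other libraries, but its lowest library and WT replicate 2 were within 1 CPM. Coasy rose in C59A relative to C59S by 0.71 ± 0.17 on the log2 scale (1.64-fold, adjusted p 0.0354), while the difference from WT, 0.58 ± 0.17 (1.5-fold), had an adjusted p of 0.0733. Single libraries decided both. Without WT replicate 2 the difference from WT passed (0.79, adjusted p 0.0177), and that from C59S no longer passed without C59A replicate 1 (0.0962), C59A replicate 3 (0.131), C59S replicate 1 (0.0749), C59S replicate 2 (0.0717) or C59S replicate 3 (0.142).

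Of the enzymes that consume coenzyme A, Nudt19 changed and Nudt7 did not pass the test. Nudt19 (ENSMUSG00000034875, chromosome 7: 35547185 to 35556304, minus strand) was at 340, 266 and 219 CPM in the WT libraries, 841, 980 and 1020 in those of C59A and 446, 307 and 206 in those of C59S. The lowest C59A library lay well above the highest of the others, C59S replicate 1, and C59S spanned the WT range and beyond. Nudt19 rose in C59A by 1.78 ± 0.26 on the log2 scale against WT (3.44-fold, 95% interval 1.21 to 2.36, adjusted p 0.00297) and by 1.57 ± 0.26 against C59S (2.96-fold, interval 0.99 to 2.14, adjusted p 0.0065). It passed in both comparisons under all 17 alternatives run, with an adjusted p of at most 0.0147 against WT and 0.0356 against C59S when any 1 library was left out. The antisense gene B230322F03Rik, which overlaps it by 938 bases, had 139 reads in all, 0.151% of the reads of Nudt19.

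Nudt7 (ENSMUSG00000031767, chromosome 8: 114133557 to 114154739, plus strand), the hydrolase best known from liver, was at 14.6, 14.8 and 14.3 CPM in the WT libraries, 18.1, 14.1 and 20.2 in those of C59A and 13.8, 16.5 and 13.2 in those of C59S. C59A replicate 2 lay below all WT libraries and the other C59A libraries above them. The log2 difference was 0.26 ± 0.16 from WT (95% interval −0.08 to 0.6, adjusted p 0.367) and 0.27 ± 0.16 from C59S (−0.07 to 0.61, adjusted p 0.338). The ratio of Nudt19 to Nudt7 FPKM was 39.5 ± 8.57 in WT kidneys, 117 ± 25.9 in C59A and 46.5 ± 18.8 in C59S (SD of 3 libraries).

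Vnn1 (ENSMUSG00000037440, chromosome 10: 23894688 to 23905343, plus strand), which returns pantothenate outside the cell, was at 71.2, 62.3 and 79.1 CPM in the WT libraries, 205, 144 and 225 in those of C59A and 60.8, 103 and 49.6 in those of C59S. All C59A libraries were above all others, with C59S replicate 2 the nearest. Vnn1 rose in C59A by 1.43 ± 0.26 on the log2 scale against WT (2.7-fold, adjusted p 0.0105) and by 1.43 ± 0.26 against C59S (2.69-fold, adjusted p 0.0126). The first call was lost without WT replicate 1 (adjusted p 0.0537), and the second without C59A replicate 1 (0.0552) or C59A replicate 3 (0.0539).

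**Figure D3:**
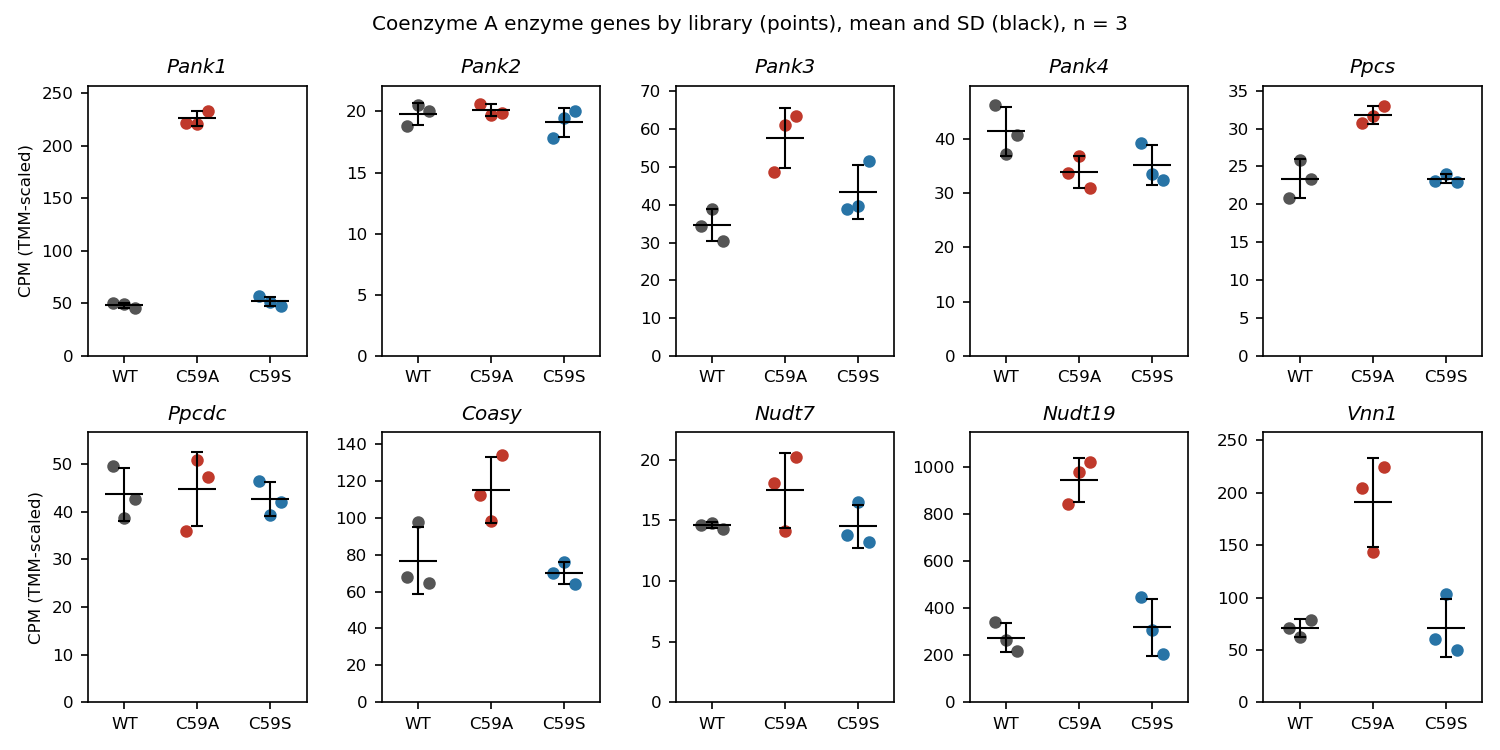
Level of each coenzyme A gene in CPM by library (points; WT grey, C59A red, C59S blue) with the mean and SD of 3 in black, each axis starting at 0. Pank1 and Nudt19 have all C59A points far above the rest, and Vnn1 has them above the rest, with C59S replicate 2 the nearest. Pank2 and Ppcdc have overlapping points throughout, and Coasy has WT replicate 2 beside the lowest C59A point.

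Counted together, 4 of the 9 genes other than Pank1 passed in C59A against WT, all of them higher: Pank3, Ppcs, Nudt19 and Vnn1. Their share stands beside a background of 5.7% of all 17114 genes tested, 3.24% higher and 2.46% lower, but the pathway was picked on this contrast and nothing is read from that difference. With library totals alone as scaling, 20% of the genes called were higher, in place of 56.8%, and 2 of the 9 passed. The count was 1 without WT replicate 1 and 2 without C59A replicate 3. An unadjusted p under 0.05 was found for 6 of the 9, against 21% of all genes. The libraries of 5 genes lay wholly above WT and those of 1 wholly below, which held for 12.6% and 12% of all genes, or 24.6% together. The median log2 difference of the 9 genes was 0.45, against −0.02 over all genes. In C59A against C59S, which uses the same C59A libraries, 4 of 9 passed, all higher: Ppcs, Coasy, Nudt19 and Vnn1, beside a background of 5.91% (3.35% higher and 2.56% lower). An unadjusted p under 0.05 was found for 5 of 9, against 22.9% of all genes, and the libraries of 4 genes lay wholly above C59S and of 0 below, against 14.7% and 14.5% of all genes, or 29.3% together. That count was 1 without C59A replicate 1 or C59A replicate 3, and 2 without C59S replicate 1, C59S replicate 2 or C59S replicate 3. The median log2 difference was 0.42, against −0.01 over all genes.

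**Figure D4:**
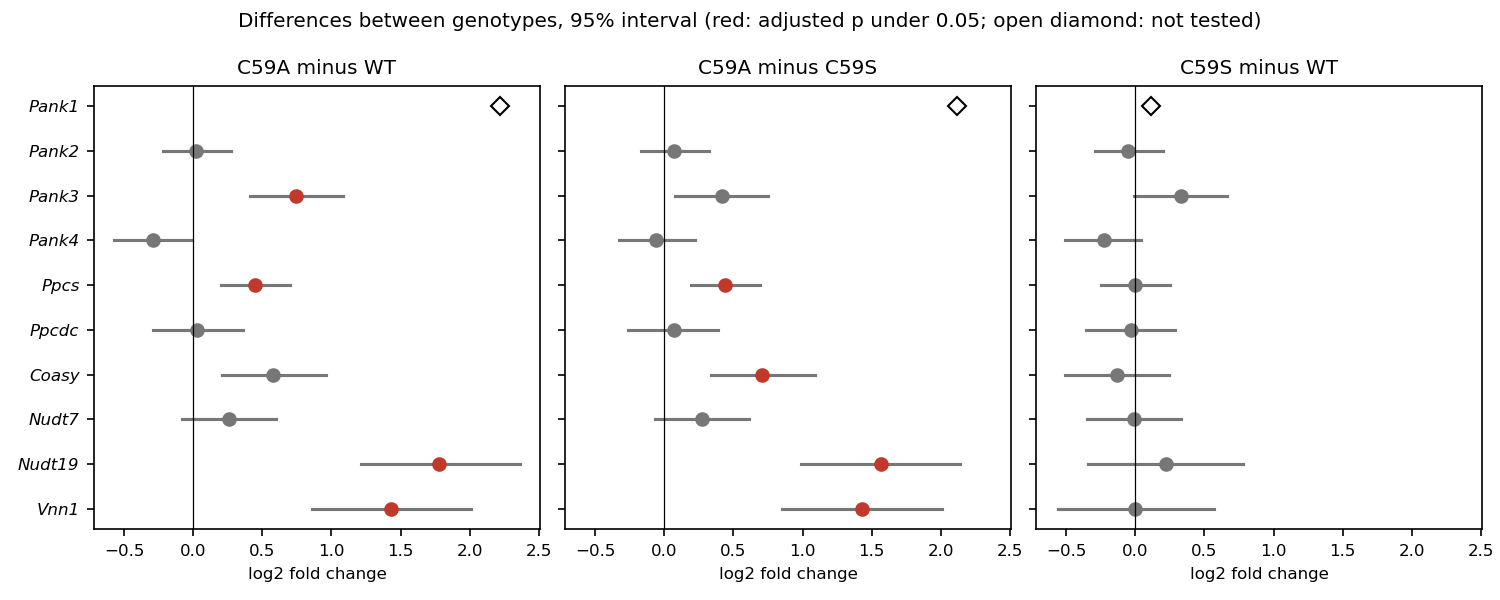
Log2 difference of each coenzyme A gene in the 3 comparisons with its 95% interval, red where the adjusted p is under 0.05 and open for Pank1, which was not tested. Nudt19 and Vnn1 lie at 1.43 to 1.78 in both C59A panels, and all 10 points of C59S minus WT lie between −0.23 and 0.33.

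Between C59S and WT, none of the 9 genes other than Pank1 passed the test. The count was 0 of 9 by edgeR, 0 at an unadjusted p under 0.05, 0 by DESeq2 and 0 in a fit that pairs C59S and WT libraries by replicate number. The background was 0% of all genes by the main test, with 18.1% at an unadjusted p under 0.05 and 670 genes by DESeq2. The libraries did not overlap for 1 of the 9, Pank3, and for 22.5% of all genes (11.2% higher and 11.3% lower). The log2 differences ran from −0.23 ± 0.13 for Pank4 (adjusted p 0.354) to 0.33 ± 0.15 for Pank3, with a median of −0.01. The interval allowed log2 differences of −0.34 to 0.78 for Nudt19 and −0.56 to 0.57 for Vnn1, the widest of the 9, and −0.25 to 0.25 for Ppcs.

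Other genes of coenzyme A handling were followed as lists. In C59S against WT the main fit called 0% of all genes, so a list's count of 0 there is not particular to that list. Among 8 further genes of its transport and transfer, 7 were tested and 0 passed in C59A against WT, beside the background of 5.7%, with a median log2 difference of 0.37. Slc25a16, a mitochondrial carrier linked to coenzyme A transport, was closest, with 0.58 ± 0.16 (adjusted p 0.0563), followed by Aasdhppt, which transfers phosphopantetheine to carrier proteins (0.38 ± 0.13, adjusted p 0.108). In C59A against C59S, 2 of 7 were higher, beside 3.35% of all genes. Slc25a42, the mitochondrial carrier that exchanges coenzyme A for adenine nucleotides, was at 228, 173 and 165 CPM in the WT libraries, 260, 236 and 212 in those of C59A and 88.3, 124 and 85.6 in those of C59S. It was low in all C59S libraries, and the C59A minus C59S difference was 1.25 ± 0.18 (adjusted p 0.00267). Its C59S minus WT difference of −0.93 ± 0.18 had an adjusted p of 0.121 in the main fit and passed when libraries were paired by number (−0.95 ± 0.18, adjusted p 0.0462), a fit in which 3.82% of 16685 genes passed. No label gives that pairing, here or in the paired fits below. Nudt8, a mitochondrial coenzyme A hydrolase, rose in C59A relative to C59S by 1.35 ± 0.35 (adjusted p 0.0467) and was −0.99 ± 0.35 in C59S against WT (adjusted p 0.196). The Nudt8 call was lost without C59A replicate 1 (adjusted p 0.185), C59A replicate 3 (0.0746), C59S replicate 1 (0.0965), C59S replicate 2 (0.0599) or C59S replicate 3 (0.157). Vnn3, a further pantetheinase, was under the filter, at 0 to 1.26 CPM.

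The proteins that carry a phosphopantetheine arm, made from coenzyme A, had 5 genes tested and 0 passing in each comparison, with a median log2 difference of −0.04 in C59A against WT. Of all genes, 5.7% passed in C59A against WT, 5.91% in C59A against C59S and 0% in C59S against WT. In C59A against WT, Aldh1l1, a cytosolic folate enzyme, was closest (0.36 ± 0.17, adjusted p 0.248), followed by Fasn, the fatty acid synthase (−0.23 ± 0.19, adjusted p 0.537). In C59A against C59S, Fasn had −0.60 ± 0.19 (adjusted p 0.0899) and Aldh1l1 0.46 ± 0.17 (adjusted p 0.135). In C59S against WT, Aasdh had −0.41 ± 0.15 (adjusted p 0.209) and Aldh1l2, the mitochondrial counterpart of Aldh1l1, −0.89 ± 0.45 (adjusted p 0.323).

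Acyl-CoA thioesterases, which free coenzyme A from its esters, moved in both directions. In C59A against WT, 2 of 11 tested were higher and 1 lower, beside 3.24% higher and 2.46% lower of all genes, with a median of 0.24 against −0.02 over all genes. Acot12, an acetyl-CoA thioesterase, was at 40.1, 41.5 and 36.4 CPM in the WT libraries, 142, 116 and 174 in those of C59A and 27.8, 38 and 24.4 in those of C59S, and rose in C59A by 1.87 ± 0.19 against WT (adjusted p 0.000192) and by 2.26 ± 0.19 against C59S (adjusted p 6.59e-05). Acot9, a mitochondrial thioesterase, was higher than in WT by 0.65 ± 0.13 (adjusted p 0.0163), a call lost without C59A replicate 3 (0.0589) or with library totals alone (0.229). Acot3, a peroxisomal one, was lower (−1.27 ± 0.29, adjusted p 0.0318), but not after removal of WT replicate 1 (0.111), WT replicate 3 (0.0831), C59A replicate 1 (0.11), C59A replicate 2 (0.0974) or C59A replicate 3 (0.087). In C59A against C59S, 3 of 11 were higher and 1 lower, against 3.35% and 2.56% of all genes, and beside Acot12 these were Acot1 (2.12 ± 0.43, adjusted p 0.0307), Acot9 (0.52 ± 0.13, adjusted p 0.0454) and, lower, Acot7 (−1.24 ± 0.23, adjusted p 0.0119). Acot7 did not pass without C59A replicate 1 (0.0588), Acot9 without any 1 library (0.0649 to 0.174), and Acot1 without C59A replicate 1 (0.097), C59A replicate 3 (0.106), C59S replicate 1 (0.0878) or C59S replicate 3 (0.111). In C59S against WT, 0 of 11 passed, and the smallest p were those of Acot4 (−0.46 ± 0.15, adjusted p 0.172) and Acot11 (−0.37 ± 0.15, adjusted p 0.229). Acot1 and Acot3 are close copies of each other and of further family members, so reads may have been split between them.

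Acyl-CoA synthetases, which consume free coenzyme A, also split. In C59A against WT, 2 of 17 tested were higher and 3 lower, beside 3.24% and 2.46% of all genes, with a median of −0.17 against −0.02. Acsm3, a medium-chain synthetase, was at 0.421, 0.402 and 0.906 CPM in the WT libraries, 38.4, 40.7 and 47.3 in those of C59A and 0.0373, 0.632 and 0.945 in those of C59S. Its fitted log2 difference was 6.18 ± 0.52 from WT (adjusted p 0.00023) and 6.45 ± 0.53 from C59S (adjusted p 0.000232). Its neighbour in function Acsm1 was lower, at −1.29 ± 0.17 from WT (adjusted p 0.00161) and −1.25 ± 0.17 from C59S (adjusted p 0.0019). The acetate-activating pair went opposite ways against WT: the cytosolic Acss2 was higher by 0.84 ± 0.14 (adjusted p 0.00627, but 0.0843 with library totals alone) and the mitochondrial Acss1 lower, at −1.48 ± 0.22 (adjusted p 0.00314). In C59A against C59S, 3 of 17 were higher and 3 lower, beside 3.35% and 2.56% of all genes, including Acss2 (1.05 ± 0.15, adjusted p 0.00197) and Acsm2 (1.83 ± 0.29, adjusted p 0.00496). When any 1 library was left out, 4 of the 5 calls against WT and 4 of the 6 against C59S held. In C59S against WT, 0 of 17 passed, with Acsm2 at −0.88 ± 0.28 (adjusted p 0.173) and Slc27a1, a fatty acid transporter with synthetase activity, at −0.47 ± 0.18 (adjusted p 0.209). With libraries paired by number, Acsm2 (−0.91 ± 0.12, adjusted p 0.0321) and Acss1 (−0.54 ± 0.1, adjusted p 0.0398) passed.

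Peroxisome genes, the setting in which NUDT7 and NUDT19 act, were higher in C59A for 8 of 34 tested and lower for 0 against WT, with a median log2 difference of 0.34, and higher for 8 and lower for 1 against C59S, with a median of 0.41. Of all genes, 3.24% were higher and 2.46% lower in the first comparison and 3.35% and 2.56% in the second, with medians of −0.02 and −0.01. Crot, which passes medium-chain acyl groups from coenzyme A to carnitine, was at 73.2, 80.5 and 59.5 CPM in the WT libraries, 292, 293 and 266 in those of C59A and 85, 78.2 and 58.9 in those of C59S. It rose by 2 ± 0.17 against WT (adjusted p 6.65e-05) and by 1.94 ± 0.17 against C59S (adjusted p 6.82e-05). Amacr, the racemase of branched acyl-CoA, rose by 1.32 ± 0.16 (adjusted p 0.000639) and 1.48 ± 0.16 (adjusted p 0.000311). When any 1 library was left out, 5 of the 8 higher calls against WT and 7 of the 8 against C59S held, and the lower one did not. With library totals alone, 4 of the 8 against WT and 1 of the 8 against C59S were lost. Nudt12, a peroxisomal hydrolase of nicotinamide nucleotides, rose against WT by 0.97 ± 0.15 (adjusted p 0.00318). Acox3, an oxidase of branched substrates, rose against C59S by 1.32 ± 0.11 (adjusted p 6.82e-05). In C59S against WT, 0 of 34 passed in the main fit, with Acox3 at −0.63 ± 0.11 (adjusted p 0.112). In the paired fit Acox3 (−0.65 ± 0.09, adjusted p 0.0334) and the amino acid oxidase Dao (−0.53 ± 0.1, adjusted p 0.0438) passed.

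Of 14 regulators of lipid and energy genes, among them the PPAR family to which Pank1 and Vnn1 are known to respond, 0 were higher and 1 lower in C59A against WT, a share near the 5.7% of all genes called, with a median of −0.16. No PPAR gene passed there. Ppara was at −0.94 ± 0.29 (adjusted p 0.0905), Ppard at −0.35 ± 0.14 (adjusted p 0.194) and Pparg at 1.37 ± 0.38 (adjusted p 0.0564). Their part in the coenzyme A values was not tested. Srebf2, the sterol-responsive factor, was lower at −0.61 ± 0.14 (adjusted p 0.0227), and not after removal of WT replicate 2 (0.074), C59A replicate 2 (0.0731) or its replicate 3 (0.079). In C59A against C59S, 1 of 14 was higher, again near the share of all genes (5.91%): Mlxipl, the carbohydrate-responsive factor (0.94 ± 0.19, adjusted p 0.0161), a call lost without C59A replicate 1 (0.0776), C59S replicate 2 (0.0589) or C59S replicate 3 (0.0629). In C59S against WT, 0 of 14 passed in the main fit, with Pparg at 2.05 ± 0.38 (adjusted p 0.112) and Mlxipl at −0.85 ± 0.19 (adjusted p 0.121). Both passed in the paired fit (Pparg 1.99 ± 0.25, adjusted p 0.0321, and Mlxipl −0.83 ± 0.17, adjusted p 0.0489). Pparg, the adipocyte PPAR, was at 1.05 to 1.81 CPM in WT, 2.86 to 4.82 in C59A and 3.73 to 9.38 in C59S, beside the adipocyte marker values given above, whose part was not tested.

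**Figure D5:**
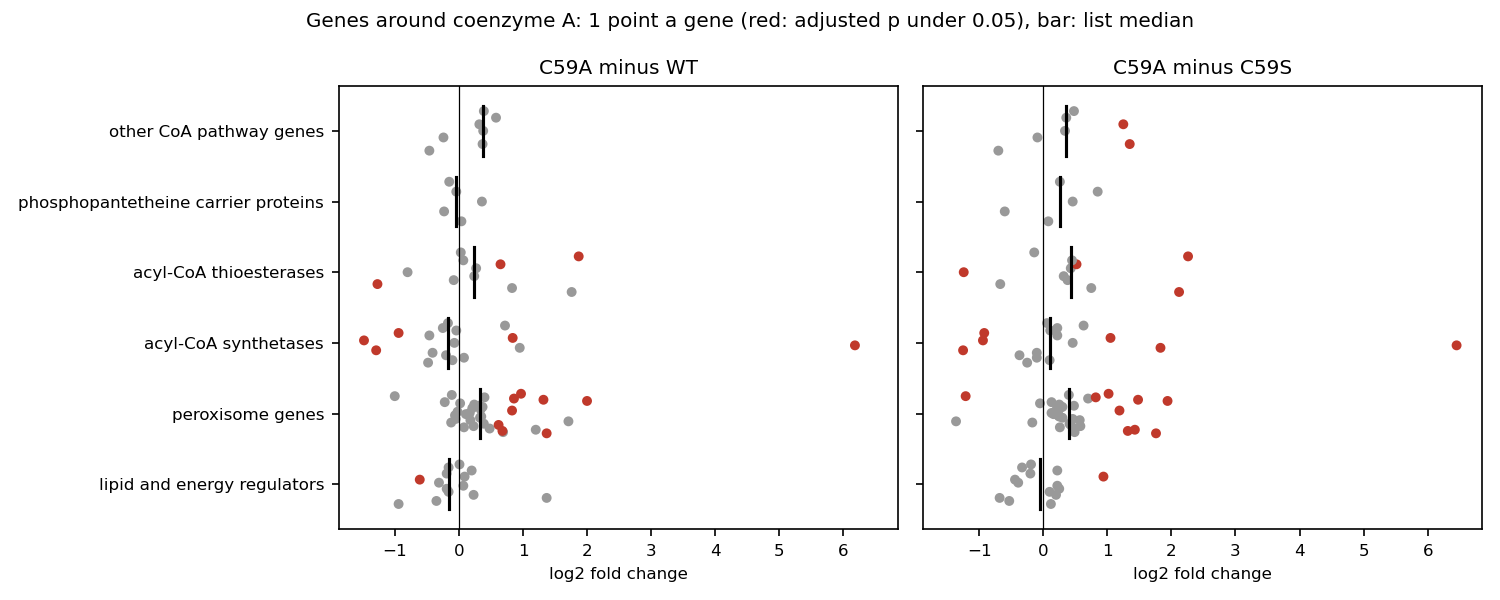
Log2 difference of each tested gene in 6 lists around coenzyme A, C59A minus WT on the left and C59A minus C59S on the right, red where the adjusted p is under 0.05, with the list median as a black bar. The peroxisome list has 8 red points to the right of 0 in each panel, and Acsm3 stands alone at 6.18 and 6.45.

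Measured beside these differences, other groups of genes moved with the C59A genotype. Of all genes, 3.24% were higher and 2.46% lower in C59A against WT, and 3.35% and 2.56% against C59S. The lists here and in the next paragraph were chosen with earlier results of these data known. Their counts are therefore no independent evidence of a direction. All 9 genes listed as male-biased in mouse kidney were higher in C59A in both comparisons, and their sum was 3200 to 8720 CPM in WT, 29500 to 39500 in C59A and 6510 to 13800 in C59S. All 5 genes listed as female-biased were lower, with a sum of 354 to 416 CPM in WT, 39.6 to 59.7 in C59A and 309 to 424 in C59S. Of these, the call of Abcc3 was lost against WT without WT replicate 1 or 2 or any C59A library (adjusted p 0.0782 to 0.128) and against C59S without any C59A library or C59S replicate 1 or 2 (0.0603 to 0.117). Against C59S that of Slc22a27 was lost without C59A replicate 1 or 3 or C59S replicate 2 (0.0527 to 0.0645), and that of the male-biased Kap without any C59A library or C59S replicate 2 or 3 (0.0584 to 0.121). The 5 markers of late proximal tubule summed to 246 to 665 CPM in WT, 1550 to 1870 in C59A and 409 to 763 in C59S, and 3 of them were higher in C59A against WT, with Slc7a13 and Cyp7b1 shared between this list and the male-biased one. The third, Atp11a (1.8 ± 0.38, adjusted p 0.0253), was lost without WT replicate 1 or any C59A library (0.057 to 0.0852), and the remaining markers, Slc22a7 (−0.29 ± 0.61, adjusted p 0.845) and Slc5a1 (−0.28 ± 0.16, adjusted p 0.343), did not pass. Early proximal tubule markers summed to 11100 to 12200 CPM in WT, 6300 to 9950 in C59A and 6280 to 8880 in C59S, with 1 of 11 higher and 2 lower in C59A against WT. The higher one, Slc22a6 (0.91 ± 0.22, adjusted p 0.0312), was lost without any WT library or C59A replicate 1 or 3 (0.0648 to 0.115). The lower ones, Slc5a2 and Slc6a19, held when any 1 library was left out.

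Some markers of other cell types were lower in C59A, beside 2.46% of all genes lower against WT and 2.56% against C59S. Distal convoluted tubule markers summed to 2110 to 3390 CPM in WT, 842 to 1360 in C59A and 1350 to 1510 in C59S, with 2 of 3 lower in C59A against WT and 1 of 3 against C59S. Intercalated cell markers summed to 348 to 484 CPM in WT, 205 to 267 in C59A and 336 to 349 in C59S, with 3 of 5 lower against WT and 1 of 5 against C59S. Nphs1, 1 of 5 podocyte markers, was lower in C59A in both comparisons, and Scnn1b, 1 of 5 principal cell markers, against WT. Principal cell markers summed to 500 to 839 CPM in WT, 607 to 1060 in C59A and 707 to 999 in C59S. Of these, 2 of 5 were on the higher side in C59A against WT without passing: Aqp2 (1.12 ± 0.35, adjusted p 0.0994) and Fxyd4 (0.42 ± 0.32, adjusted p 0.508). Endothelial markers summed to 155 to 372 CPM in WT, 258 to 297 in C59A and 414 to 599 in C59S, with 2 of 5 lower in C59A against C59S and 0 of 5 passing against WT. Of the calls in these 5 lists, those of Foxi1 and Atp6v1b1, intercalated cell markers, against WT held when any 1 library was left out, and the others did not. No marker of thick ascending limb, leukocytes, fibroblasts or adipocytes passed in a C59A comparison. In whole kidney, more cells of a type and more RNA per cell cannot be told apart. The part of these groups in the coenzyme A values was not tested, and with no labelled sex and all C59A libraries alike in sex-linked RNA, sex and allele cannot be told apart.

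The 5 protein-coding genes with the pattern most like Pank1 over the log2 CPM of the 9 libraries were Kdm5d, Slco3a1, Crot, Galns and Galnt1. Kdm5d, a histone demethylase gene of the Y chromosome, had a Pearson r of 0.995 and a Spearman rho of 0.664 with Pank1, and was at 17.7 to 24.8 CPM in C59A, at 0 in WT and at 0 to 0.0675 in C59S. Crot had r of 0.991 and rho of 0.867, Slco3a1, an organic anion transporter, 0.991 and 0.867, Galns, a lysosomal sulfatase, 0.99 and 0.85, and Galnt1, which starts O-glycans, 0.989 and 0.75. The likeness rests on the step between C59A and the other genotypes, which all 5 share, and the 9 points hold 3 groups, so it is a description with no p.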

How the data were processed

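Kidney RNA of 9 libraries, 3 per genotype, was grouped by the genotype in the labels. Per the submitters' processing notes, reads were handled with CASAVA 1.8, fastp, HISAT2 2.0.5, featureCounts 1.5.0-p3 and DESeq2 1.20.0 on GRCm38. The counts are whole reads per gene as deposited by the authors and unnormalized, as far as the values show. The deposited FPKM equal those counts divided by gene length and by a constant per library. That constant is not the library total. Pank1 had 1186 reads and 13.2 FPKM in WT replicate 1, and 707 reads and 12.8 FPKM in C59S replicate 3. The totals of these libraries were 21144972 and 18603933, and the TMM-scaled CPM of Pank1 were 50 and 47.7. The FPKM thus already hold a scaling near that of TMM, and fits on FPKM are no independent check of it. The NEBNext Ultra RNA kit of the labels' protocols does not mark strand. The gene annotation used, the strand option and the treatment of multiply matching reads are not given in the sources used here, so paralogs may share reads.

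In R 4.3.3 with edgeR 4.0.16, genes were filtered with filterByExpr (17114 of 52636 kept) and scaled with TMM factors (0.797 to 1.12). All 9 libraries entered 1 robust quasi-likelihood fit, with Benjamini-Hochberg adjustment over all genes tested, and genes were called at an adjusted p under 0.05. A standard error is the log2 fold change over the square root of F. Intervals are 95% intervals of the same fit. No pair of libraries within a genotype was a duplicate (chi-square per degree of freedom 23.5 or more).

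The members and lists were chosen with earlier results of these data known. Named were all members, the called genes of each list up to 4 by smallest p, or the 2 of smallest p where none was called, and the 5 genes most correlated with Pank1. Of these, 2 genes of the peroxisome list are not reported here. Cyp7b1, Slc7a13, Xist, Vnn3, Dao, Rnf24 and the markers Abcc3, Slc22a27, Kap, Atp11a, Slc22a7, Slc5a1, Nphs1, Scnn1b, Foxi1 and Atp6v1b1 are named, after their values were seen, as list examples, overlaps, for lost calls or for calls of the paired fit, and Acss1 in C59S for the latter. The markers Aqp2, Fxyd4, Fabp4, Adipoq, Slc22a6, Slc5a2 and Slc6a19 are likewise named as list examples after their values were seen. So are Ppara and Ppard, and Pparg in C59A against WT. Replicate numbers were checked for pairing. Deviations of same-numbered C59S and WT libraries from their genotype means correlated at 0.32, 0.2 and 0.26. Those of C59A with WT were at 0.01, −0.09 and 0.05, and with C59S at −0.09, −0.29 and 0.05. Such values are linked to each other, since each deviation is taken from the mean of its genotype. No label gives a pairing, so whether the numbers pair the samples is not known. A test of Pank1 in C59S against WT was planned and is not given, since the choice used all 9 libraries. The paired fit of C59S and WT was chosen after seeing the data. Of the 10 symbols, 8 matched RefSeq start windows of GRCm38.p6. Nudt8 names 2 genes, of which ENSMUSG00000024869 was used.

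Alternatives were RLE factors, library totals alone, no filter, DESeq2 1.42.0, limma 3.58.1 voom with quality weights, only the 2 genotypes compared, a replicate block, the mitochondrial share as covariate, limma on log2 of FPKM plus 1 or 0.1 for genes averaging at least 0.5 FPKM or without a filter, and each library left out in turn.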

Additional observations from a re-analysis of the deposited data

How the results depend on the processing

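The call of Nudt19 in both C59A comparisons held under each alternative run, and Pank1 stayed 1.99 to 2.27 on the log2 scale above WT (library totals alone gave 1.99, and log2 of FPKM plus 1 gave 2.15). The members called in C59A against WT were 4, but 2 with library totals alone, 2 with the mitochondrial share as covariate, 1 with FPKM and no filter, and 1 to 5 with 1 library left out. Against C59S they were 4, but 2, 2 and 1 under those settings and 1 to 3 with 1 library left out. The call of Vnn1 was lost with FPKM and no filter in both (adjusted p 0.0593 and 0.0633), and that of Pank3 with totals (0.0724), the covariate (0.07) and FPKM without a filter (0.0885). For Ppcs, 10 of 17 alternatives ended the call in each comparison, with an adjusted p of up to 0.479 against WT and 0.232 against C59S, both with totals. Coasy against C59S lost its call in 11, among them the replicate block (0.72, adjusted p 0.0555), and against WT it gained one with no filter (0.021) or DESeq2 (0.0293). Among the members the block of all 9 libraries ended no other call. Library totals shift the median of all genes to −0.26 in C59A against WT, where 20% of calls are then higher in place of 56.8%, to −0.19 in C59S against WT and to −0.05 in C59A against C59S, where the share higher goes from 56.7% to 47%. Against that shift Pank1 stood at 2.24 and Nudt19 at 1.8 above WT.

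All genes called in C59A against WT were 975, with 1622 by DESeq2, 434 with the covariate, 410 with FPKM and no filter, and 502 to 852 with 1 library left out (530 without WT replicate 1, 536 without C59A replicate 1 and 502 without C59A replicate 3). In C59A against C59S they were 1012, with 1765 by DESeq2, 1773 by voom, 670 with totals, 517 with the covariate, 657, 670 and 278 with FPKM, and 318 to 1006 with 1 library left out (lowest without C59S replicate 3). In C59S against WT they were 0, with 20 by totals, 308 with no filter, 670 by DESeq2, 638 in the paired fit of C59S and WT with a replicate block, and 0 to 737 with 1 library left out, 737 without WT replicate 3. Members called there stayed at 0 in each. The paired fit changed no member's call.

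Differences near 0 changed sign. With library totals, C59A minus WT became −0.21 for Pank2 and −0.21 for Ppcdc, and C59S minus WT became −0.08 for Pank1, −0.19 for Ppcs and −0.16 for Vnn1. Ppcdc became −0.07 (WT) and −0.03 (C59S) by voom and −0.03 (WT) with the covariate. In C59S minus WT, Ppcs was 0 with RLE factors and in the paired fit and −0.01 with 2 genotypes, Nudt7 was 0.16 with the covariate and 0 with FPKM plus 1, and Vnn1 was 0 with RLE factors, DESeq2 or the replicate block, −0.01 with 2 genotypes, −0.04 by voom, −0.04 to −0.05 with FPKM and −0.07 in the paired fit. With 1 library left out, C59A minus WT ranged over −0.01 to 0.05 for Pank2 and −0.07 to 0.17 for Ppcdc, C59A minus C59S over −0.12 to 0.03 for Pank4 and −0.03 to 0.21 for Ppcdc, and C59S minus WT over −0.08 to 0 for Pank2, −0.07 to 0.08 for Ppcs, −0.12 to 0.07 for Ppcdc, −0.24 to 0.08 for Coasy, −0.11 to 0.06 for Nudt7, −0.1 to 0.46 for Nudt19 and −0.36 to 0.21 for Vnn1. The cause was not tested. Depth did not limit the members, each with 196 reads or more per library, but the microRNA genes were under the detection floor of 3 reads in nearly every library.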
